A study of Mus musculus with 26 samples.

Results

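Small peritoneal macrophages (SPMs) of ACKR2-/- mice were compared with those of WT mice across all genes with enough reads. ACKR2 is an atypical chemokine receptor that takes up and degrades inflammatory CC chemokines and does not signal through G proteins. SPMs are the MHCII positive macrophages of the peritoneal cavity. They are replenished from CCR2 positive blood monocytes, whereas the large peritoneal macrophages beside them are long-lived residents of embryonic origin. Within the MHCII positive cells of body cavities, a subset that expresses LYVE1, FOLR2 and the lectin receptor MRC1 is known as longer lived and as tissue supporting.

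The 8 SPM samples, 4 per genotype, are part of a series of 26 samples that also holds 8 of bone marrow monocytes and 10 of MHCII negative lung macrophages. Each SPM sample held sorted cells of 5 naive female mice aged 8 to 10 weeks, so a sample is a pool and not an animal. The ACKR2-/- mice carried the deletion in all cells and came from a homozygous colony of their own, whereas the WT mice were bought C57BL/6J mice. Differences between the colonies other than the deletion, including the segment of chromosome 1 described below, cannot be told apart from the genotype. SPMs were gated as live CD45+ CD11b+ cells with intermediate F4/80 and with MHCII, and genes of the gate are given here as checks only. The samples are named WT1 to WT4 and KO1 to KO4 by genotype and replicate number.

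Reads were counted on 54863 genes, of which 12997 passed a filter on low counts (edgeR's filterByExpr) and were tested. Between 12781144 and 35400034 reads per sample fell on genes. Levels are in CPM, the reads on a gene scaled to library size, and 3 reads corresponded to between 0.0773 and 0.264 CPM. Fold changes are ACKR2-/- over WT on the log2 scale, and a gene counts as called where its absolute value is over 0.5 and the adjusted p under 0.05. The genes Ptprc, Itgam and Adgre1, which encode the gated proteins CD45, CD11b and F4/80, were read at 128.7 to 322, at 90.7 to 240.9 and at 52.8 to 182.4 CPM. H2-Ab1 of MHC class II was at 24420 to 37810 CPM, and Ccr2, Folr2, Lyve1 and Cbr2 were found in all 8 samples. Other cells were also represented, with the mast cell protease gene Cpa3 at 123.6 to 1391 CPM, the B cell receptor gene Cd79a at 72.8 to 268.7 CPM and the T cell receptor gene Cd3d at 18.7 to 38.4 CPM. The eosinophil gene Epx, the fibroblast gene Col1a1 and the mesothelial gene Wt1 had 0 reads in every sample, but other genes of these cell types were read. Per sample, 6 tested eosinophil genes summed to 454.4 to 1468 CPM and 7 mesothelial genes to 46.1 to 79.2 CPM. The eosinophil sum includes Alox15 and Ear2. Among untested genes of that list, Prg2, Prg3 and Ear6 had 0 to 3 reads over the samples of a genotype, and Ear1 and Ccr3 had 14 to 34. The sum therefore does not show that eosinophils were present, and which cells carried these reads was not tested. The 2 tested fibroblast and stromal genes summed to 0.144 to 8.47 CPM, with the most in KO2. Ackr2 itself was too low to be tested, with 29 reads over the WT samples and 0 over the ACKR2-/- samples.

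The sample WT1 stood apart from the other 7. Its mean correlation with the other WT samples was 0.906, against 0.943 to 0.983 for each other sample within its own genotype. WT1 held the highest of the 8 values in 37.5% of the tested genes and the lowest in 34.8%. Of its gene counts, 9.44% lay on the longest 25% of tested genes, against 4.70% to 6.42% in the other samples, and 0.672% lay on lincRNAs, against 0.179% to 0.391%. Leaving WT1 out moved the log2 fold change of a gene by a median of 0.195, whereas leaving out WT3 moved it by 0.125 and any other sample by 0.0466 to 0.0742. A shift of more than 0.5 was found in 1877 genes without WT1 and in 329 without WT3, and the fold change of 4132 genes (31.8%) changed sign without WT1. The median fold change of all genes was -0.05 on the log2 scale with all samples and 0.01 without WT1. What set WT1 apart was not tested.

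**Figure D1:**
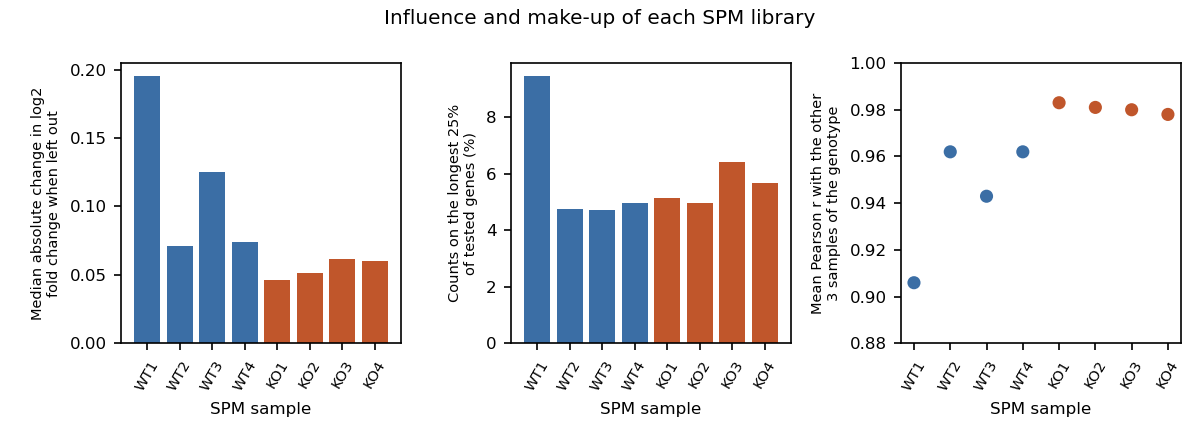
Influence of each SPM sample. The panels show, for each of the 8 samples (WT1 to WT4, KO1 to KO4), the median absolute shift of the log2 fold changes when that sample is left out, its mean correlation with the other samples of its genotype, and the percentage of its gene counts on the longest 25% of tested genes. WT1 has the largest shift of the 8 (0.195), the lowest correlation (0.906) and the largest share of counts on long genes (9.44%).

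The ACKR2-/- samples also differed among themselves. In 917 genes (7.06%), KO1 and KO4 both lay above the other 6 samples. Of the 381 genes that were higher in ACKR2-/- SPMs at an unadjusted p under 0.05, 275 had this pattern. Of the same 381 genes, 285 passed that threshold in the same direction without WT1 (where 4.35% of all genes were higher and 3.81% lower) and 44 without KO1 and KO4 (where 0.453% were higher and 0.513% lower). Of the 328 genes that were lower, 177 passed without WT1 and 37 without KO1 and KO4. With KO1 and KO4 left out, only a pair of ACKR2-/- samples remains, so fewer genes pass for that reason also. What set KO1 and KO4 apart was not tested.

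Among the 12997 genes, 4 rose in ACKR2-/- SPMs (0.0308%) and 2 fell (0.0154%), or 0.0462% in all, by the quasi-likelihood test of edgeR with p-values adjusted over all tested genes. Of these 6, 5 lay in a segment of chromosome 1 from Ctse to Phlda3 in which 48 genes were tested, namely Ppfia4, Rab7b and Btg2, which rose, and Ctse and Chil1, which fell. The sixth was Gdf3 on chromosome 6. Without WT1, 4 genes rose (0.0303%) and 4 fell (0.0303%), and the 2 additional genes were Folr2 and Cbr2. The larger fold changes of the segment depended little on WT1. For Ppfia4 the log2 fold change was 7.2 with it and 6.88 without, for Rab7b 4.73 and 4.71, for Ctse -4.002 and -4.15 and for Chil1 -6.94 and -7.18. Btg2, a p53-induced antiproliferative gene, was most affected, since WT1 held 47.6 CPM against 21.2 to 24.9 CPM in the other WT samples and 101.0 to 125.5 CPM in the ACKR2-/- samples. Its adjusted p was 0.0433 with WT1 and 7.15e-05 without, but it ranged from 0.125 to 0.284 when any 1 of the other 7 samples was left out. Chil1 was not called without KO2 (adjusted p = 0.0569).

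Gdf3, a TGF-beta family ligand (minus strand of chromosome 6, 122605403 to 122610087, mm10), was read at 0.719, 1.39, 2.11 and 1.18 CPM in WT1 to WT4 and at 11.2, 6.01, 6.39 and 12.7 CPM in KO1 to KO4. All ACKR2-/- samples lay above all WT samples, with the highest values in KO4 and KO1. In log2 units the difference was 2.78 ± 0.39 (SE, n = 4 per genotype, adjusted p = 0.0433 by edgeR's quasi-likelihood test), and it was 2.59 without WT1 (adjusted p = 0.0423) and 2.22 without KO1 and KO4. Leaving out any 1 of the other 7 samples kept the fold change between 2.57 and 3.04, with adjusted p of 0.0549 to 0.281. Of 6 tested TGF-beta and BMP ligand genes, 3 had a positive fold change, and Gdf3 was the member called. The 24 tested receptors, SMADs and targets of the pathway held 0 called genes, and their median changed from -0.15 to 0.10 without WT1. At an unadjusted p under 0.05, 2 of them were higher, Id1 and Id2, and 0 were lower, against 2.93% and 2.52% of all genes. Id2, a transcriptional inhibitor, was at 611.0 to 646.7 CPM in WT, WT1 included, and at 1183, 745.0, 719.0 and 897.2 CPM in KO1 to KO4, without overlap. Id1, a target of BMP signalling, was at 0.0958 CPM in WT1, at 0.528 to 0.929 CPM in WT2 to WT4 and at 0.670 to 2.05 CPM in ACKR2-/- samples, and the genotypes overlapped.

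The genes of resident cavity and interstitial macrophages held the most lower genes of any list. The lists were written with earlier results of these data known, so this rank and the counts below are descriptions and not tests. Of 19 tested members of this list, 6 were lower at an unadjusted p under 0.05 and 1 was higher, against 2.52% and 2.93% of all genes. Their median log2 fold change was -0.48, against -0.05 over all genes, and it was -0.33 without WT1 and -0.44 without KO1 and KO4. In 5 members every ACKR2-/- sample lay below every WT sample, which held for 1.6% of all genes. With all 8 samples 0 members were called by edgeR, whereas limma voom with sample quality weights, which gave WT1 a weight of 0.0841, called 4 of them lower (Folr2, Cbr2, Lyve1 and Cd209f). Across all genes that fit called 13 up (0.1%) and 19 down (0.146%).

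Folr2, which encodes folate receptor beta (chromosome 7, 101839988 to 101857194, mm10), was read at 25.02, 35.2, 35.3 and 34.1 CPM in WT1 to WT4 and at 10.7, 10.96, 15.1 and 15.5 CPM in KO1 to KO4. WT1 was the lowest WT sample and was still above KO1 to KO4. The log2 fold change was -1.31 ± 0.21 (SE, n = 4 per genotype, adjusted p = 0.123 in edgeR), and without WT1 it was -1.41 (adjusted p = 0.0139). Cbr2, a carbonyl reductase gene (chromosome 11, 120729489 to 120732114), was at 69.1, 94.0, 113.2 and 94.6 CPM in WT and at 42.3, 40.2, 41.7 and 50.9 CPM in ACKR2-/- samples. The genotypes did not overlap, and WT1 was again the lowest WT sample. Its log2 fold change was -1.08 ± 0.20 (adjusted p = 0.203 in edgeR) and -1.20 without WT1 (adjusted p = 0.0106). DESeq2 called both genes with all 8 samples, at an adjusted p of 1.03e-04 for Folr2 and 0.00236 for Cbr2, in a fit that called 0.064% of genes up and 0.056% down. Leaving out KO1 and KO4 left the fold changes at -1.31 and -1.18.

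Lyve1, which encodes a hyaluronan receptor, moved with WT1 in the other direction. It was read at 24.9, 14.7, 13.7 and 14.04 CPM in WT1 to WT4 and at 5.56, 6.34, 7.91 and 5.09 CPM in KO1 to KO4. WT1 was the highest sample, and the other WT samples also lay above every ACKR2-/- sample. The log2 fold change was -1.44 ± 0.26 (SE, n = 4 per genotype, adjusted p = 0.203 in edgeR) and -1.18 without WT1 (adjusted p = 0.0576). Cd209f and Cd209g, neighbouring genes of the DC-SIGN lectin family, were both lower without overlap. Cd209f was at 12.5, 11.7, 22.5 and 13.7 CPM in WT and at 1.72, 5.43, 8.06 and 1.72 CPM in ACKR2-/- samples, and Cd209g was at 3.56 to 8.27 CPM in WT and at 0.593 to 2.40 CPM in ACKR2-/- samples. In both genes KO1 and KO4 were the lowest. The log2 fold changes were -1.83 for Cd209f and -2.10 for Cd209g, and -1.16 and -1.49 without KO1 and KO4.

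For some other genes of this group and of the SPM list the fold change shrank without WT1. Mrc1, the mannose receptor gene, was at 181.9 CPM in WT1 and at 55.9 to 65.1 CPM in the other WT samples, which overlapped the 35.3 to 64.5 CPM of the ACKR2-/- samples. Its log2 fold change was -0.91 with WT1 and -0.33 without. F13a1, the coagulation factor XIII A gene of tissue macrophages and monocytes, was at 404.5 CPM in WT1, at 125.4 to 171.5 CPM in WT2 to WT4 and at 67.4 to 166.2 CPM in ACKR2-/- samples, and its fold change went from -0.89 to -0.39 without WT1. Ccr2, the receptor by which monocytes leave the bone marrow, was at 1815, 729.3, 569.5 and 732.2 CPM in WT and at 367.1, 442.9, 534.7 and 341.6 CPM in ACKR2-/- samples. The genotypes of Ccr2 did not overlap with WT1 or without it, and the log2 fold change was -1.19 with WT1 and -0.68 without. The voom fit with sample quality weights called Ccr2 lower, with a log2 fold change of -0.86 (adjusted p = 0.0294 by limma). Ccr2 lies within 10 Mb of Ackr2 on chromosome 9, so sequence linked to the targeted gene cannot be told apart from the genotype.

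Retnla, which encodes the alternative activation marker RELM-alpha, was among the most abundant transcripts. It was at 85730, 69470, 66430 and 59530 CPM in WT1 to WT4 and at 23060, 55410, 36260 and 19020 CPM in KO1 to KO4. All ACKR2-/- samples were below all WT samples, with KO1 and KO4 the lowest. The log2 fold change was -1.07 ± 0.36 (SE, n = 4 per genotype, adjusted p = 0.788 in edgeR), -0.96 without WT1 and -0.61 without KO1 and KO4. Ccl24, an eosinophil chemoattractant made by alternatively activated macrophages, had the same order of samples, with 138.6 to 185.1 CPM in WT, 126.2 and 121.1 CPM in KO2 and KO3 and 60.9 and 49.5 CPM in KO1 and KO4. Arg1, another marker of that state, went the other way, at 2.78 to 11.1 CPM in WT and 10.2 to 65.1 CPM in ACKR2-/- samples. Of the 23 tested genes of alternative activation and IL-4 signalling, 3 were higher and 3 lower at an unadjusted p under 0.05, against 2.93% and 2.52% of all genes. The median of this list changed sign with WT1, from -0.15 with all samples to 0.16 without it, where 4 members were higher and 3 lower. Of the 20 tested genes of the SPM list, 4 had a positive fold change, and 1 was higher and 2 were lower at that threshold. Without WT1, 7 had a positive fold change, and 1 was higher and 5 were lower, against 4.35% and 3.81% of all genes. The median of the list was -0.26 with WT1 and -0.26 without. In bulk samples, fewer cells of a type and less RNA per cell cannot be told apart.

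**Figure D2:**
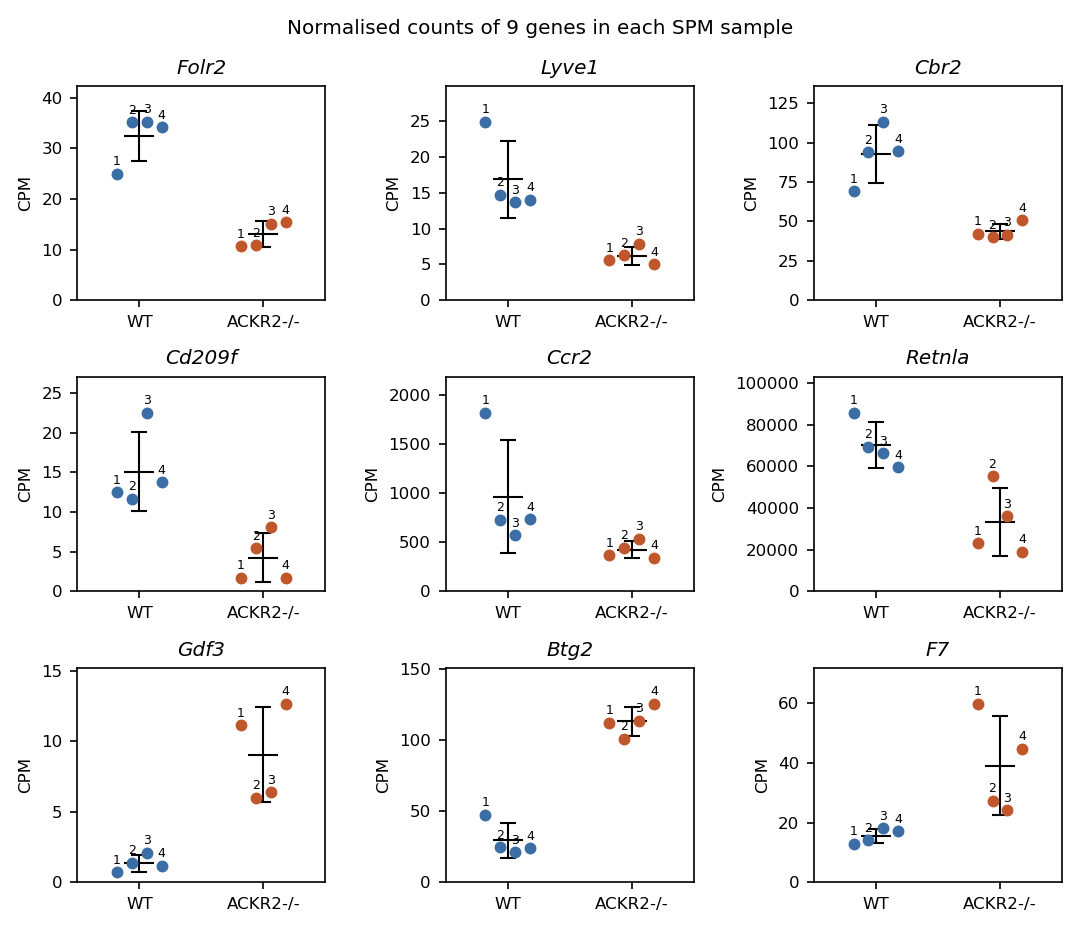
CPM of 9 genes in the 8 SPM samples, with the replicate number at each point and bars for the mean ± SD of 4 samples per genotype. Folr2, Lyve1, Cbr2, Cd209f, Ccr2 and Retnla are lower in all ACKR2-/- samples, Gdf3, Btg2 and F7 are higher in all of them, and WT1 (point 1 of WT) is far above the other WT samples for Ccr2, Lyve1 and Btg2.

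The promoters of Folr2 and Cbr2, genes of this group that passed the threshold without WT1, are shown for comparison with those of interferon-induced genes further below. They are RefSeq sequences on GRCm38.p6, of 300 bases around the start of the gene, both from the minus strand and written 5′ to 3′, for Folr2 at chr7:101857141-101857440 and for Cbr2 at chr11:120731972-120732271. Neither holds the interferon stimulated response element or the gamma activated site defined with those promoters, so they have no capitals.

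Folr2: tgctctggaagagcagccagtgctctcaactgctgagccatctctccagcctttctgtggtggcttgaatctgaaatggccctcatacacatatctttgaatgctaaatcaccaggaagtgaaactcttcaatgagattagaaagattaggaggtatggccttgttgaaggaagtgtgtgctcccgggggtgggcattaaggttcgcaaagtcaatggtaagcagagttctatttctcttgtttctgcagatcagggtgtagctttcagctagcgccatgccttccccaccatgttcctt
Cbr2: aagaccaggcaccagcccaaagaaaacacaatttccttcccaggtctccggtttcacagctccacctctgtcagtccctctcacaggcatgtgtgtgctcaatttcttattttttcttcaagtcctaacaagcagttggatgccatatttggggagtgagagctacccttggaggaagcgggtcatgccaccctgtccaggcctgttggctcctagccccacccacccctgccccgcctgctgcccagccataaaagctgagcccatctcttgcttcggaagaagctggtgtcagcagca

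Several genes outside these lists had among the smallest p-values in edgeR, and none of them was called by edgeR with all 8 samples. Mucl1, a mucin-like gene, was at 165.6, 84.9, 144.4 and 102.3 CPM in WT1 to WT4 and at 1.92, 11.9, 19.1 and 7.81 CPM in KO1 to KO4. The gap between the genotypes was wide, with a log2 fold change of -3.60 ± 0.56 (SE, n = 4 per genotype, adjusted p = 0.104), and it was -3.43 without WT1. Dapl1 was at 2.55 to 3.88 CPM in WT and 0.917 to 1.11 CPM in ACKR2-/- samples. Sod3, the extracellular superoxide dismutase gene, was at 2.16 to 2.99 CPM in WT and 0.623 to 1.64 CPM in ACKR2-/- samples. Fxyd2, a regulatory subunit gene of the sodium pump, was at 30.9 to 33.1 CPM in all WT samples, WT1 included, and at 14.9 to 23.8 CPM in ACKR2-/- samples. The log2 fold changes without WT1 were -1.51 for Dapl1, -1.47 for Sod3 and -0.83 for Fxyd2, and with it -1.62, -1.40 and -0.83. With all 8 samples, limma voom with sample quality weights called all 4 genes lower, at an adjusted p of 0.00248 for Mucl1, 0.00372 for Dapl1, 0.0176 for Fxyd2 and 0.025 for Sod3. DESeq2 called Mucl1 and Dapl1 lower (adjusted p = 4.97e-09 and 7.7e-05).

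Serpinb10 and Serpinb2, neighbouring serine protease inhibitor genes, went in opposite directions. Serpinb10 was at 102.1 to 174.7 CPM in WT and at 26.8 to 72.7 CPM in ACKR2-/- samples, and its log2 fold change was -1.49. Serpinb2, plasminogen activator inhibitor 2, was at 4.55, 22.4, 32.4 and 40.2 CPM in WT1 to WT4 and at 45.8, 67.8, 61.2 and 113.4 CPM in KO1 to KO4, with a log2 fold change of 1.53. The genotypes overlapped in neither gene. The annotated loci of the pair overlap, so reads may be divided between them in a way the counts do not show.

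Among the higher genes, F7, the initiating protease of the extrinsic coagulation pathway, was at 13.04, 14.2, 18.1 and 17.2 CPM in WT1 to WT4 and at 59.9, 27.4, 24.1 and 44.8 CPM in KO1 to KO4. It was higher in all ACKR2-/- samples and highest in KO1 and KO4. The log2 fold change was 1.32 ± 0.30 (SE, n = 4 per genotype, adjusted p = 0.669 in edgeR), 1.24 without WT1 and 0.72 without KO1 and KO4. F10, which F7 activates, was at 54.5 to 83.3 CPM in WT, at 99.2 and 85.8 CPM in KO2 and KO3 and at 211.4 and 264.4 CPM in KO1 and KO4. With Serpinb2, these were the 3 of 15 tested coagulation and fibrinolysis genes that were higher at an unadjusted p under 0.05, against 2.93% of all genes. The median of the list was -0.03. Oscp1 (log2 fold change 1.84), Gem (1.23), Prkar1b (1.86) and Gm20658 (3.64) were also higher without overlap, and all had means of at most 2.62 CPM in either genotype. Fdps, Hist1h4m and Hist1h4n have near-identical copies elsewhere in the genome, so their values, at 4 CPM or less in every sample, are uncertain.

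Genes induced by interferon held the most higher members of any list, and the high values were in KO1 and KO4. This rank is also a description, since earlier results of these data were known when the lists were written. Of 39 tested members, 17 were higher and 0 lower at an unadjusted p under 0.05, against 2.93% and 2.52% of all genes, and 0 were called. The median log2 fold change was 0.90, against -0.05 over all genes. Leaving out WT1 left it at 0.83, with 13 members higher. Leaving out KO1 and KO4 brought it to -0.13, with 0 members higher or lower. In 29 of the 39 genes KO1 and KO4 both lay above the other 6 samples, against 7.06% of all genes. Summed over the list, KO1 and KO4 held 4568 and 6162 CPM, KO2 and KO3 held 2457 and 2271 CPM and the WT samples 2431 to 3123 CPM.

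Irf7, a transcription factor that amplifies the type I interferon response, was at 13.4, 20.7, 22.4 and 30.1 CPM in WT1 to WT4 and at 84.0, 19.3, 24.4 and 257.6 CPM in KO1 to KO4. KO1 and KO4 were high, and KO2 and KO3 lay within the WT range. Cxcl10, a chemokine that attracts CXCR3 positive lymphocytes, was at 0.479 to 2.68 CPM in WT, at 1.61 and 2.27 CPM in KO2 and KO3 and at 29.2 and 29.0 CPM in KO1 and KO4. Cxcl9, a chemokine for the same receptor, was at 1.06 to 4.03 CPM in WT, at 1.14 and 2.27 CPM in KO2 and KO3 and at 56.5 and 61.2 CPM in KO1 and KO4. Ifi205, of the DNA-sensing p200 family, and Iigp1, an immunity-related GTPase, had the same order of samples. Ifi205 reached 78.1 and 115.0 CPM in KO1 and KO4 against at most 7.49 CPM elsewhere, and Iigp1 reached 54.7 and 84.6 CPM against at most 4.21 CPM. The log2 fold changes of Irf7, Cxcl10, Cxcl9, Ifi205 and Iigp1 were 2.15, 3.27, 3.85, 3.12 and 4.49, with an adjusted p of 0.788 each in edgeR's quasi-likelihood test. Without KO1 and KO4 they were 0.01, 0.28, -0.28, -0.28 and 0.62.

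The guanylate-binding proteins and immunity-related GTPases, which act on vacuoles of intracellular pathogens, share members with the interferon list and had the same pattern. Of 20 tested genes, 12 were higher and 0 lower at an unadjusted p under 0.05, against 2.93% and 2.52% of all genes. In 17 of them KO1 and KO4 lay above all other samples, against 7.06% of all genes. The median log2 fold change of the list was 1.10 with all samples, 1.03 without WT1 and 0.12 without KO1 and KO4. Igtp was at 116.0 and 130.5 CPM in KO1 and KO4, and at 17.6 to 47.6 CPM in the other samples. Gbp4 was at 20.2 and 24.6 CPM in KO1 and KO4, and at 2.82 to 6.60 CPM elsewhere, and its locus overlaps that of Gbp8, which had similar values. Irf8, a transcription factor of monocyte and dendritic cell development, is in neither of these lists, and its genotypes did not overlap, at 7.09, 8.11, 6.24 and 11.2 CPM in WT and 39.7, 11.4, 11.2 and 47.2 CPM in ACKR2-/- samples. KO2 and KO3 lay just above WT4, and the log2 fold change of 1.74 was 0.47 without KO1 and KO4.

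**Figure D3:**
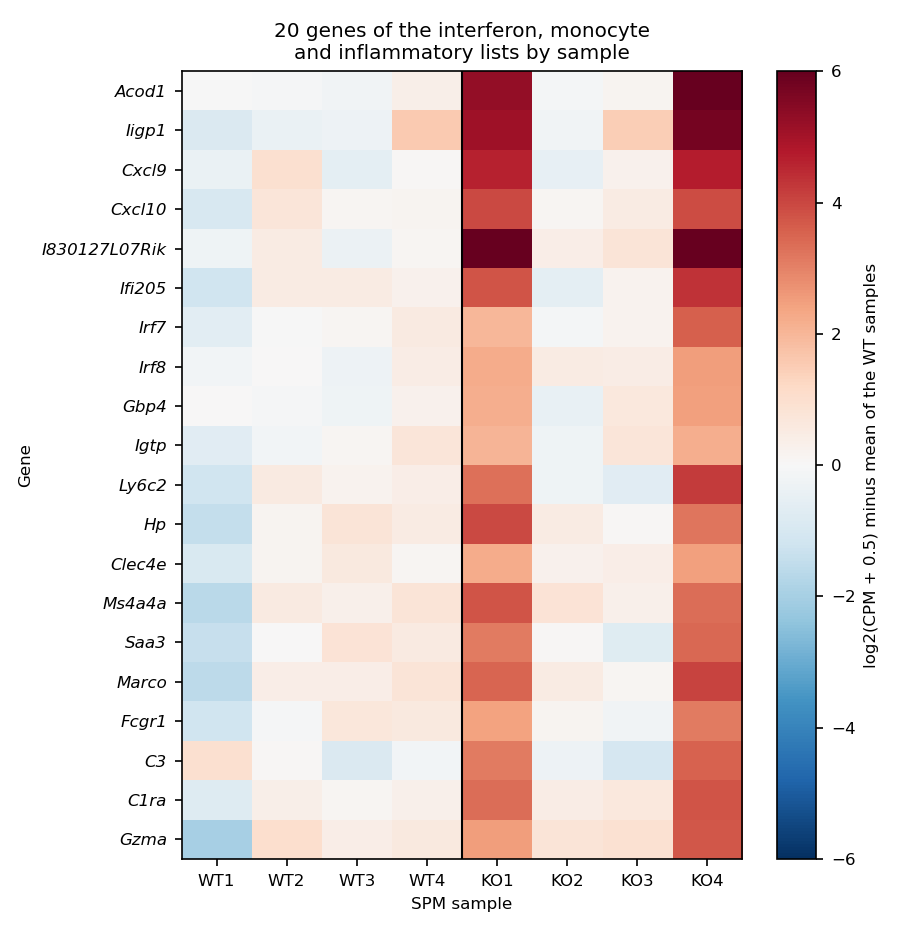
Log2(CPM + 0.5) of 20 genes picked by hand from several lists, among them the interferon, monocyte, inflammatory, complement, NK cell and receptor lists. Each is shown minus the mean of the 4 WT samples, in the 8 SPM samples (columns). KO1 and KO4 are high in all 20 genes, whereas KO2 and KO3 are close to WT and WT1 is the lowest WT sample in 14 of the 20. Because the genes were picked, this does not describe whole lists. There, KO1 and KO4 both lay above the other 6 samples in 29 of 39 interferon, 10 of 14 classical monocyte and 9 of 17 inflammatory genes.

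Promoters of 3 of these genes are shown because letters of interferon-responsive motifs could be searched in them. The RefSeq sequences are on GRCm38.p6, 300 bases each, from the minus strand and written 5′ to 3′, for Cxcl10 at chr5:92348840-92349139, for Ifi205 at chr1:174031706-174032005 and for Irf7 at chr7:141266375-141266674. Capitals mark matches, on either strand, to the core of the interferon stimulated response element, written as GAAA, 2 bases of any kind and GAAA again.

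Cxcl10: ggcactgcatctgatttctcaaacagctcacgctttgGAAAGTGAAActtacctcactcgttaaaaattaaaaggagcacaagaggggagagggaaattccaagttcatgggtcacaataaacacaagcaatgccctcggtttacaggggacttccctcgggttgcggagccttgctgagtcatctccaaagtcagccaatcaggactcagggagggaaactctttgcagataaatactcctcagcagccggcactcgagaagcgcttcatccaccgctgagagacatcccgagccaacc
Ifi205: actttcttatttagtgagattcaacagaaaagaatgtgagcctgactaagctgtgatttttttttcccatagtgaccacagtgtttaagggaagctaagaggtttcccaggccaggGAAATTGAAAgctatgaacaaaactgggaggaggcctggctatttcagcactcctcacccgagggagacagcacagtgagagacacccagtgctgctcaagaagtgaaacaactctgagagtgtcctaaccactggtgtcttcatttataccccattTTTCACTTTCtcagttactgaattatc
Irf7: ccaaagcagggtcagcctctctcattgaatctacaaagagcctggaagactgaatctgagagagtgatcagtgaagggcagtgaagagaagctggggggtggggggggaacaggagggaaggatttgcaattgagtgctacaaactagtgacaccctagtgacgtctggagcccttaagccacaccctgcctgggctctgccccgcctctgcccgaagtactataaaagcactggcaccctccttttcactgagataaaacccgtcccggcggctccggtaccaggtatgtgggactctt

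The Cxcl10 stretch held 1 match and the Ifi205 stretch 2, and Irf7 had none in this window. Among members with a promoter sequence, the motif was in 21 of 29 interferon genes (72.4%), in 10 of 11 of the GTPase genes (90.9%), in 0 of 12 genes of resident cavity macrophages and in 320 of 9149 tested genes (3.5%). The gamma activated site, TTCCNGGAA, was in 3 of 29 interferon genes (10.3%), in 4 of 11 GTPase genes (36.4%) and in 111 of 9149 tested genes (1.21%). Matches describe the letters of these windows and were not tested as binding sites.

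Inflammatory mediators were high in the same samples. Of 17 tested members, 6 were higher and 0 lower at an unadjusted p under 0.05, against 2.93% and 2.52% of all genes. All 17 had a positive fold change, against 44.3% of all genes. The median of the list was 0.71, 0.69 without WT1 and 0.19 without KO1 and KO4. Acod1, whose enzyme makes itaconate in activated macrophages, was at 0.671, 0.620, 0.528 and 0.998 CPM in WT1 to WT4 and at 45.5, 0.587, 0.824 and 75.05 CPM in KO1 to KO4. KO2 and KO3 lay within the WT range. Saa3, an acute phase gene of macrophages, was at 13370 and 17020 CPM in KO1 and KO4 and at 587.1 to 2755 CPM in the other samples. Slpi, an inhibitor of leukocyte elastase, was at 108.1, 504.0, 1036 and 638.2 CPM in WT and at 6069, 1984, 931.1 and 3252 CPM in ACKR2-/- samples. KO3 lay within the WT range, and the log2 fold change of Slpi was 2.42 with all samples and 1.35 without KO1 and KO4. Osm, a cytokine of the interleukin 6 family, did not overlap, at 0.527 to 1.07 CPM in WT and 1.44 to 3.64 CPM in ACKR2-/- samples.

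Markers of other cells moved with this pattern. Of 14 tested classical monocyte genes, 7 were higher and 1, Ccr2, was lower at an unadjusted p under 0.05, against 2.93% and 2.52% of all genes. The median of the list was 1.01 with all samples and -0.09 without KO1 and KO4. Ly6c2, which encodes the monocyte antigen Ly6C, was at 380.3 and 706.7 CPM in KO1 and KO4 and at 16.8 to 56.6 CPM in the other samples. Hp, the haptoglobin gene, was at 593.9 and 353.0 CPM there, and at 13.7 to 65.5 CPM elsewhere. Vcan, another monocyte marker, was near 0 in every sample, with 2 to 13 reads. The neutrophil gene Ly6g had 0 to 21 reads, with the most in KO4, and S100a9 was at 33.0 and 82.0 CPM in KO1 and KO4, at 2.53 and 10.8 CPM in KO2 and KO3 and at 1.49 to 41.5 CPM in WT. The summed level of the 24 large peritoneal macrophage genes was 17790 and 22250 CPM in KO1 and KO4, and 4222 to 6441 CPM in the other samples. Most of that sum in KO1 and KO4 was Saa3, which is also on the inflammatory list, and the other 23 genes summed to 4421 and 5229 CPM there and to 3101 to 4375 CPM in the other samples. Of the 24 genes, 8 had KO1 and KO4 above all other samples. Among these, Icam2 was at 764.5 and 811.4 CPM in KO1 and KO4 and at 97.6 to 338.4 CPM elsewhere. Timd4, another gene of the list, was at 120.6 to 185.1 CPM in 7 samples and at 29.2 CPM in WT1. The part of such cells in the interferon and inflammatory values was not tested.

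Of 13 tested natural killer cell genes, 11 had KO1 and KO4 above all other samples, against 7.06% of all genes. At an unadjusted p under 0.05, 5 were higher, against 2.93% of all genes, and 0 lower, and their median was 1.22, 1.01 without WT1 and 0.09 without KO1 and KO4. Gzma, a granzyme of cytotoxic cells, was at 0.383, 6.45, 4.05 and 4.66 CPM in WT1 to WT4 and at 19.1, 5.46, 5.92 and 45.4 CPM in KO1 to KO4, so that both WT1 was low and KO1 and KO4 were high. Ncr1, which encodes the NK receptor NKp46, did not overlap between genotypes, at 0.0958 to 1.77 CPM in WT and 1.96 to 7.33 CPM in ACKR2-/- samples, and Xcl1, a chemokine made by NK cells, did not overlap either, at 0.431 to 1.40 and 2.05 to 9.56 CPM. The summed level of the list was 302.9 and 409.1 CPM in KO1 and KO4 and 76.9 to 258.2 CPM in the other samples. Higher levels of these genes were not particular to SPMs. In the fit of all 26 samples described below, Gzma, Ncr1 and Xcl1 had log2 fold changes of 2.32, 1.86 and 2.18 in SPMs. In lung macrophages they had 2.22, 1.70 and 1.71, and in monocytes Gzma and Xcl1 had 3.84 and 4.62.

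Several receptors that sense and take up microbes were highest in the same samples. Of 31 tested phagocytic and scavenger receptors, 8 were higher and 1 was lower at an unadjusted p under 0.05, against 2.93% and 2.52% of all genes. Without WT1 3 were higher and 0 lower, against 4.35% and 3.81% of all genes. Marco, a scavenger receptor of cavity macrophages, was at 206.4 and 310.7 CPM in KO1 and KO4 and at 5.85 to 31.6 CPM in the other samples. Fcgr1, the high affinity IgG receptor gene, was at 54.9 and 91.0 CPM in KO1 and KO4 against 3.98 to 16.3 CPM. Scarb1, a lipoprotein receptor gene, did not overlap, at 10.2 to 15.2 CPM in WT and 16.1 to 32.3 CPM in ACKR2-/- samples. Of 23 tested Toll-like receptors and adaptors, Tlr2, which senses bacterial lipoproteins, and Tlr13, which senses bacterial ribosomal RNA, were the 2 that were higher, and the median of the list was 0.07. Tlr13 was at 1.77 to 3.07 CPM in WT and 3.34 to 14.2 CPM in ACKR2-/- samples, without overlap. Of 10 tested genes of the Ms4a family of membrane proteins 4 were higher, with a median of 1.01 that was -0.08 without KO1 and KO4. WT1 was the lowest of the 8 samples in all 10.

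Among 15 tested complement genes, 4 were higher and 1 was lower at an unadjusted p under 0.05, against 2.93% and 2.52% of all genes. C1ra, a protease of the classical pathway, was at 0.287 to 1.24 CPM in WT, at 1.36 and 1.60 CPM in KO2 and KO3 and at 13.1 and 18.02 CPM in KO1 and KO4, so its genotypes did not overlap. C3, the central component, was at 61.6 and 83.0 CPM in KO1 and KO4, at 5.28 and 3.09 CPM in KO2 and KO3 and at 3.43 to 13.2 CPM in WT. Its log2 fold change was 2.36 with all samples and -0.83 without KO1 and KO4. Cfb of the alternative pathway had the same order at lower levels, with 3.87 and 8.03 CPM in KO1 and KO4 and at most 0.702 CPM elsewhere.

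The CC chemokines that ACKR2 binds are inflammatory chemokines cleared from the tissue. Of 10 such genes 7 were tested, and their median was 0.71, 0.46 without WT1 and 0.22 without KO1 and KO4. At an unadjusted p under 0.05, 2 were higher and 0 lower, against 2.93% and 2.52% of all genes. The 2 were Ccl3 and Ccl4, which attract monocytes and lymphocytes. Ccl4 was at 1.53 to 5.37 CPM in WT and at 22.1, 4.47, 5.49 and 36.8 CPM in KO1 to KO4, and Ccl3 was at 1.48 to 3.25 CPM in WT and at 6.74, 2.82, 2.96 and 9.59 CPM in KO1 to KO4. KO1 and KO4 were the highest, and the genotypes overlapped in both genes. Summed over the list, levels were 42.1 to 157.1 CPM in WT, 186.0 and 257.6 CPM in KO1 and KO4 and 90.9 and 68.6 CPM in KO2 and KO3. Of 14 tested chemokine receptors 2 were lower, Ccr2 and Cxcr4. Cxcr4, the receptor that retains cells in the bone marrow, was at 0.431 to 1.96 CPM in WT and 0.192 to 0.754 CPM in ACKR2-/- samples, overlapping through WT1.

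Cell cycle and DNA replication genes had mostly positive fold changes. Of 40 tested genes, 38 had a positive fold change, against 44.3% of all genes. At an unadjusted p under 0.05, 6 were higher and 0 lower, against 2.93% and 2.52% of all genes. In 6 every ACKR2-/- sample lay above every WT sample, against 1.8% of all genes. The median log2 fold change was 0.51, 0.37 without WT1 and 0.42 without KO1 and KO4. WT1 was the lowest sample in 25 of the 40 genes. The summed level was 286.5 CPM in WT1, 564.9 to 708.3 CPM in WT2 to WT4 and 616.9 to 819.8 CPM in ACKR2-/- samples, so the sums overlapped. Cdc20, an activator of the anaphase promoting complex, was at 1.15, 3.92, 4.31 and 4.55 CPM in WT1 to WT4 and at 8.62, 7.003, 5.15 and 6.30 CPM in KO1 to KO4, and its log2 fold change went from 0.96 to 0.66 without WT1. Plk1, a mitotic kinase, was at 0.863 to 2.14 CPM in WT and 2.16 to 5.21 CPM in ACKR2-/- samples, so that KO2 lay just above WT4. Pimreg, a mitotic regulator, was at 1.15 to 2.03 CPM in WT and 2.91 to 4.22 CPM in ACKR2-/- samples. Which cells of the samples carried these transcripts was not tested. The 24 tested replication histone genes went the other way, and 21 of them had a negative fold change. Their median was -0.37, -0.21 without WT1 and -0.15 without KO1 and KO4. With all samples 0 of them were higher and 2 lower at the unadjusted threshold, against 2.93% and 2.52% of all genes. Without WT1 2 were higher and 2 lower, against 4.35% and 3.81% of all genes.

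Of 23 tested p53 targets, 6 were higher and 0 lower at an unadjusted p under 0.05, against 2.93% and 2.52% of all genes, and they included Btg2 and Phlda3, both of the chromosome 1 segment. Phlda3, an inhibitor of AKT, was at 0.958 to 1.65 CPM in WT and 3.07 to 4.25 CPM in ACKR2-/- samples. Outside the segment, Cdkn1a, the cell cycle inhibitor p21, was at 74.2, 84.8, 82.1 and 97.8 CPM in WT and at 200.8, 120.7, 98.5 and 179.0 CPM in ACKR2-/- samples, with a log2 fold change of 0.82 that was 0.76 without WT1. KO3 lay just above WT4. Of 27 tested immediate early genes, which tissue handling is known to induce, 7 were higher with all samples, against 2.93% of all genes, and 13 without WT1, against 4.35%. Btg2 is on this list also and was among the 7. The median went from 0.12 to 0.37 without WT1 and to -0.07 without KO1 and KO4. Nr4a1, a nuclear receptor of this group, was at 1.23 to 3.93 CPM in WT, WT1 being the highest, and at 3.56 to 6.54 CPM in ACKR2-/- samples. Socs3, a feedback inhibitor of cytokine signalling, was at 1.67 to 3.498 CPM in WT and 3.40 to 9.10 CPM in ACKR2-/- samples, overlapping at WT1 and KO3.

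In some families WT1 decided the sign. The 12 tested semaphorins, plexins and neuropilins, guidance receptors and ligands, had a median log2 fold change of -0.54 with WT1 and 0.12 without, and WT1 was the highest sample in 8 of them. Plxnd1 was at 36.9 CPM in WT1, at 8.44 to 10.3 CPM in WT2 to WT4 and at 4.74 to 9.20 CPM in ACKR2-/- samples. The 12 protein genes of the mitochondrial genome went from -0.52 to 0.16, the 17 circadian clock genes from -0.25 to 0.17, and 31 macrophage transcription factors from -0.04 to 0.24. Hif1a, the hypoxia-induced transcription factor, was at 78.7 CPM in WT1 and 30.8 to 33.3 CPM in WT2 to WT4, against 25.02 to 29.7 CPM in ACKR2-/- samples, so its genotypes did not overlap although the log2 fold change went from -0.66 to -0.21 without WT1. Adam10, a membrane protease gene, went from -0.83 to -0.36. Gapdh and Zfp217 changed sign. Zfp217 was at 40.4 CPM in WT1 and at 5.01 to 7.43 CPM in the other 7 samples, and Gapdh, whose reads are divided with many pseudogenes, was at 74.5 CPM in WT1, at 32.9 CPM in KO2 and at 1.23 to 5.52 CPM in the others.

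**Figure D4:**
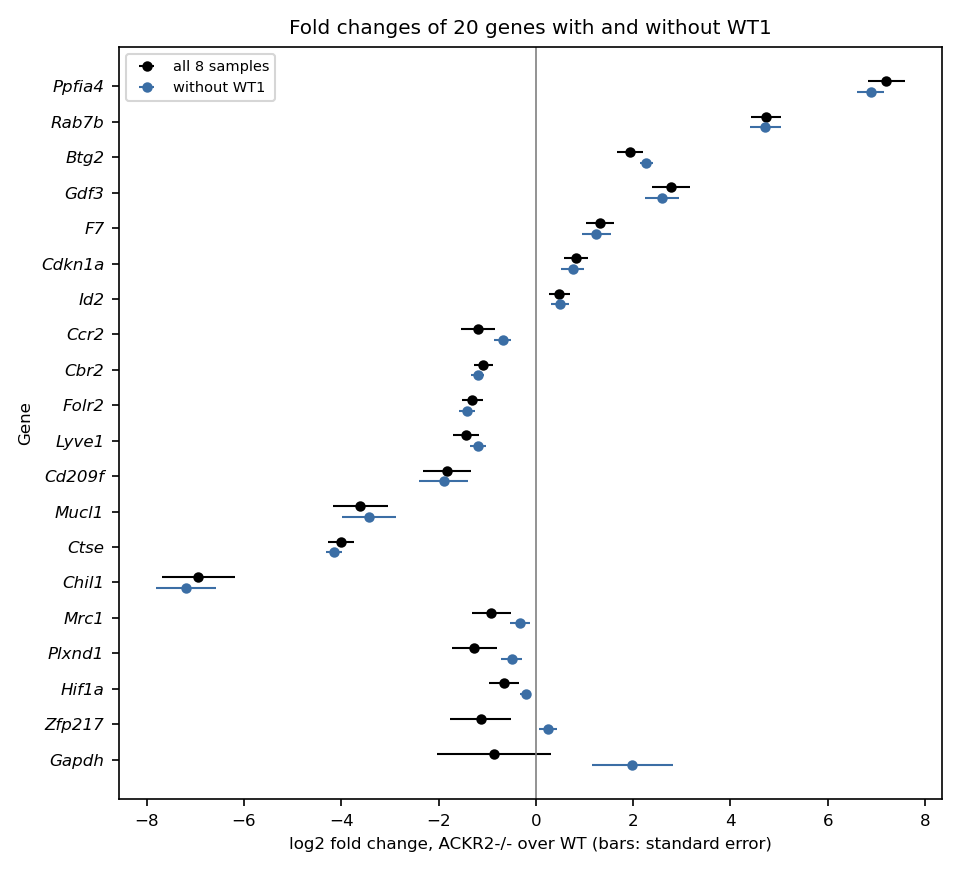
Log2 fold changes (ACKR2-/- over WT, points) and their standard errors (bars) for 20 genes with all 8 samples and without WT1. The fold changes of Folr2, Cbr2, Gdf3 and F7 hardly move, those of Ccr2, Mrc1, Plxnd1 and Hif1a move toward 0, and those of Zfp217 and Gapdh change sign.

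Several pathways of macrophage function held few genes past the unadjusted threshold, which 2.93% of all genes passed as higher and 2.52% as lower. Of 19 tested genes of MHC class II presentation, to which the sort gate belongs, 0 were higher and 0 lower, and the median was -0.04, or -0.19 without WT1. The 18 class I genes had 2 higher and 0 lower and a median of 0.39, which was -0.06 without KO1 and KO4. Tap1, the peptide transporter gene, was at 75.8 and 92.2 CPM in KO1 and KO4 and at 23.4 to 42.5 CPM in the other samples. Of 35 lysosomal genes 1 was higher and 0 were lower, with a median of 0.13, and for 17 V-ATPase subunits, 25 autophagy genes, 24 NF-kB genes and 45 nuclear genes of oxidative phosphorylation the counts were 0 higher and 0 lower. The medians of these 4 lists were 0.09, 0.12, 0.15 and 0.01, and without WT1 they were -0.005, 0.10, 0.33 and -0.12. Of the 45 oxidative phosphorylation genes, 24 had a positive fold change with WT1 and 6 without it. WT1 was the lowest sample in 35 of them, against 34.8% of all genes. Without WT1, 4 NF-kB genes were higher, against 4.35% of all genes. Of 57 tested ribosomal protein genes 2 were lower and 0 higher, 50 had a negative fold change, and the median was -0.18, or -0.09 without WT1. In 4 of them every ACKR2-/- sample lay below every WT sample, against 1.6% of all genes. A p that missed the threshold does not show that these genes had equal levels.

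The NRF2 target, heat shock, unfolded protein response and heme and iron lists each held 1 member past the unadjusted threshold. Over all genes 2.93% were higher and 2.52% lower, so the values below describe genes and not lists. Gsr, the glutathione reductase gene, was the 1 of 26 tested NRF2 target genes that was higher, at 11.8 to 16 CPM in WT, at 18.2 CPM in both KO2 and KO3 and at 34.9 and 39.2 CPM in KO1 and KO4. Hspa8, a constitutive chaperone gene, was the 1 of 21 heat shock genes, at 367.6, 434.1, 389.6 and 496.8 CPM in WT and at 614.4, 561.9, 627.3 and 608.8 CPM in ACKR2-/- samples, with a log2 fold change of 0.52 that was 0.46 without WT1 and 0.50 without KO1 and KO4. Herpud1, which acts in the disposal of misfolded proteins, was the 1 of 25 genes of the unfolded protein response, at 20.3 to 46.7 CPM in WT and 48.2 to 71.9 CPM in ACKR2-/- samples. In the other direction, Dnajb4 of the heat shock list and Hsp90b1 and Atf6 of the unfolded protein response were below every WT sample in all ACKR2-/- samples. The genotypes did not overlap in Gsr, Hspa8 and Herpud1 either, and for Hspa8 and Herpud1 KO1 and KO4 did not stand out. Tfrc, the transferrin receptor gene, was the 1 of 18 heme and iron genes that was lower, at 4.98 CPM in WT1, at 1.44 to 2.11 CPM in WT2 to WT4 and at 0.697 to 1.39 CPM in ACKR2-/- samples. Its log2 fold change was -1.32 with WT1 and -0.76 without. Of 24 cholesterol synthesis genes 2 were higher, and of 17 purine receptors and ectonucleotidases 2 were higher, among them Nt5e, the CD73 gene, at 1.03 to 1.59 CPM in WT and 1.46 to 3.42 CPM in ACKR2-/- samples, overlapping at KO1. Higher members were also 2 of 26 glycolysis and pentose phosphate genes and 2 of 23 hypoxia genes, among the latter Ppfia4 of the chromosome 1 segment. For lipid handling they were 2 of 27 and for eicosanoid genes 3 of 22, and 0 were lower in these 4 lists.

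**Figure D5:**
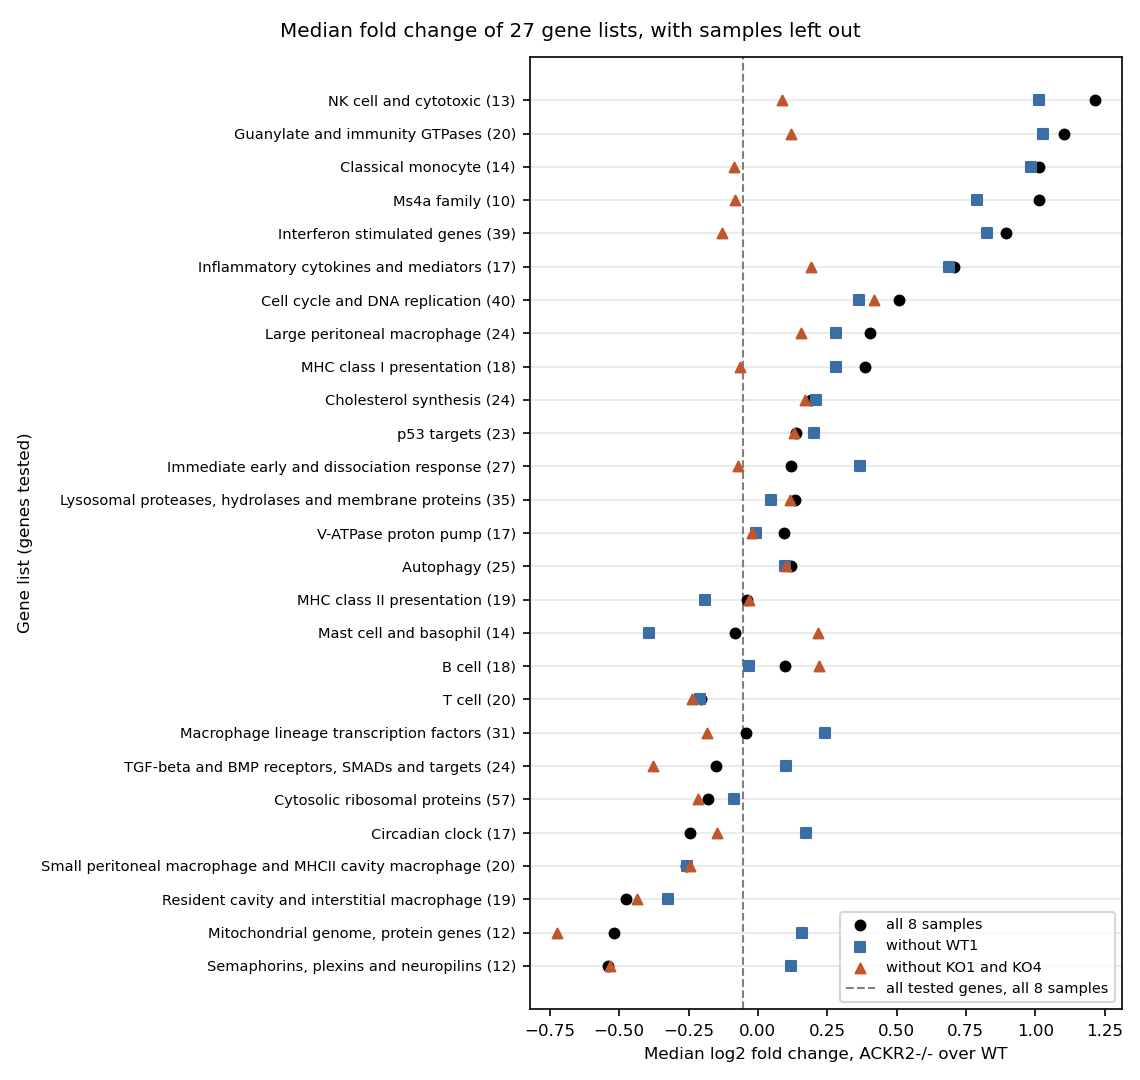
Median log2 fold change (ACKR2-/- over WT) of 27 gene lists with all 8 samples, without WT1, and without KO1 and KO4, with the median of all tested genes as a dashed line. The interferon, GTPase, monocyte and NK cell lists lie between 0.83 and 1.22 with and without WT1 and between -0.13 and 0.12 without KO1 and KO4, and the resident cavity macrophage list stays below the dashed line in all 3 fits.

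Among cells that the gate could have let in, mast cell genes had 0 of 14 members past the unadjusted threshold in either direction, but their summed level was 617.1 CPM in WT1, 3355 to 7212 CPM in WT2 to WT4 and 2256 to 5084 CPM in ACKR2-/- samples. B cell genes summed to 546.9 CPM in WT1 and 1031 to 1816 CPM in the other 7 samples. T cell genes summed to 302.0 to 550.7 CPM in WT and 265.0 to 452.5 CPM in ACKR2-/- samples, with 2 of 20 members lower, against 2.52% of all genes. Thy1, a T cell surface gene, was one of these, at 7.76 CPM in WT1, at 2.55 to 3.34 CPM in WT2 to WT4 and at 1.65 to 2.26 CPM in ACKR2-/- samples. Of 6 tested erythroid genes 4 were higher, against 2.93% of all genes, and the median of the 6 was 2.56. Without WT1 1 of the 6 was higher and the median was 2.17, and without KO1 the median was 1.26. The haemoglobin gene Hbb-bs was at 231.4 CPM in KO1, at 17.5 to 45.7 CPM in the other ACKR2-/- samples and at 0.440 to 44.4 CPM in WT.

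The genotype effect in SPMs was set against that in the other cell types in one edgeR fit of all 26 samples, on 17792 genes. The effect in SPMs differed from that in monocytes for 45 genes (0.253%) and from that in lung macrophages for 7 genes (0.0393%) at an adjusted p under 0.05 in edgeR's quasi-likelihood test. The monocyte and lung tables come from other sorts, and cell type and sort cannot be told apart. For Gdf3 the effect in SPMs was higher than that in monocytes by 2.84 ± 0.59 (log2, SE, adjusted p = 0.0319) and than that in lung macrophages by 2.51 (adjusted p = 0.185). For Btg2 the differences were 2.41 and 2.30, with adjusted p of 7.87e-04 and 0.00224. Acod1 differed from monocytes by 8.94 (adjusted p = 0.0356). Its log2 fold change in that fit was 5.44 in SPMs, where KO1 and KO4 held the high values, and -3.495 in monocytes. Dapl1 was lower than in monocytes by 5.32 on that scale, where the T cell genes Cd3d and Thy1 differed in the same direction through higher values in ACKR2-/- monocytes. For Folr2, Lyve1 and Cbr2 the differences from monocytes were 1.39 ± 1.47, 0.23 ± 1.17 and -0.999 ± 0.78 (log2, SE), none past the threshold. From lung macrophages they differed by 0.35 ± 0.62, -1.36 ± 0.80 and -0.80 ± 0.73, also none past it. In lung macrophages the log2 fold change was -1.60 for Folr2, 0.01 for Lyve1 and -0.23 for Cbr2, against -1.25, -1.35 and -1.03 for SPMs in the same fit. Other genes lower in SPMs were also lower in lung. Lung and SPM values were -6.42 and -3.52 for Mucl1, -1.82 and -0.77 for Fxyd2 and -2.53 and -1.76 for Cd209f. For Cd209g they were -2.46 and -2.05, for Mrc1 -1.43 and -0.81, for Retnla -1.61 and -0.995 and for Ccl24 -1.30 and -0.81. Serpinb10 and Dapl1 were not lower in lung, at 0.22 and 0.51. None of these lung effects had an adjusted p under 0.05 in edgeR.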

How the data were processed

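RNA was sequenced from FACS sorted SPMs of WT and ACKR2-/- mice, in 4 samples per genotype that are pools of mice. RNA was amplified by the SMARTer method. The files that the authors deposited hold the count of reads on each gene, not normalized. The submitters' processing notes name HISAT2 2.0.5, featureCounts 1.5.0-p3, DESeq2 and the build mm10. Nothing in the sources used here gives the strand or the handling of PCR copies, and genes that overlap or have near copies may share reads. Between 12781144 and 35400034 reads per sample fell on genes, which limits what can be seen of low genes, and 0 columns were left unmapped.

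Counts as deposited were compared in edgeR 4.0.16 (R 4.3.3), using filterByExpr (minimum count 10, minimum total 15), TMM scaling and the quasi-likelihood test with Benjamini-Hochberg adjustment. P-values measure the spread between samples, which are pools. Exact permutation tests of 4 samples against 4 can reach no lower than p = 0.029 and were not used for calls. The genotype effect was compared between cell types in a fit of all 26 samples on genes shared by the 3 tables. The settings varied were DESeq2 1.42.0, no filter, RLE factors, a filter at 1 CPM, a robust fit, limma 3.58.1 voom with sample quality weights, the replicate number as a block and each sample left out. Leaving out KO1 with KO4 and WT1 with WT3 was chosen after seeing the data. The steps were tested on simulated data.

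The members and lists were chosen with earlier results of these data known, so list counts and medians are descriptions. Genes are named by a rule. They are called genes, the 10 smallest p-values in each direction outside the chromosome 1 segment and 10 Mb around Ackr2, up to 4 members of each list by p, genes of the gate and cell markers, genes called without WT1 and the 5 in each direction that moved most without it. Correlations used log2(CPM + 0.5). Promoters came from RefSeq on GRCm38.p6. Same-numbered samples did not deviate together (correlations -0.111 to 0.00321), and no pair of replicates was a repeat of 1 library (chi-square over degrees of freedom at least 18.1).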

Additional observations from a re-analysis of the deposited data

Results flagged for a closer look

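Of 222 groups of 4 samples (named genes in each genotype), 24 held a sample far from the other 3 by Dixon's ratio, where chance gives about 1 in 20. The named genes include some chosen because their fold change moved most when WT1 was left out, Gapdh, CT010467.1, A130071D04Rik and Zfp217 among them, so that count cannot be read against chance. WT1 was that sample in 16 groups, in 15 as the highest. These were Btg2 at 47.6 CPM, Lyve1 at 24.9, Mrc1 at 181.9, F13a1 at 404.5, Ccr2 at 1815, Itgam at 240.9, Ptprc at 322.0, Plxnd1 at 36.9, Hif1a at 78.7, Adam10 at 111.4, Thy1 at 7.76, Gapdh at 74.5, CT010467.1 at 521.4, A130071D04Rik at 25.3 and Zfp217 at 40.4 CPM. In Folr2 WT1 was the lowest WT sample, at 25.02 CPM. CT010467.1 and Gm23935, at 14.4 to 521.4 and 1.85 to 305.5 CPM, are noncoding transcripts present in many copies, and A130071D04Rik lies within the gene Ptprc, so their reads are uncertain.

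In the ACKR2-/- samples, KO1 was far above the others for Hbb-bs (231.4 CPM) and Hbb-bt (38.4 CPM), KO4 for Adgre1 (182.4 CPM) and CT010467.1 (134.0 CPM) and KO2 for Gapdh (32.9 CPM), and KO3 was far below for Pimreg (2.91 CPM). Among WT samples, WT4 was far above for Iigp1 (4.21 CPM) and Spp1 (5.47 CPM).

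The genotype effect in SPMs differed from that in monocytes (edgeR's quasi-likelihood interaction test, adjusted p under 0.05) by 7.32 for Ppfia4, 5 for Rab7b, 2.41 for Btg2, 2.84 for Gdf3, 8.94 for Acod1, -3.74 for Ctse, -5.32 for Dapl1, -4.51 for Cd3d and -4.58 for Thy1 on the log2 scale. It differed from that in lung macrophages by 7.50 for Ppfia4, 6.37 for Rab7b, 2.30 for Btg2, -4.16 for Ctse and -7.09 for Chil1.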

How the results depend on the processing

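Across alternatives to the edgeR fit of 8 samples (4 genes called up, 2 down; 381 and 328 at an unadjusted p under 0.05), DESeq2 called 16 up and 14 down, the counts without a filter 41 and 11, and voom with quality weights 13 and 19, of which 22 of 32 lay outside both the chromosome 1 segment and 10 Mb of Ackr2. A filter at 1 CPM and the robust fit each called 2 up. Leaving out 1 sample gave 2 to 4 up and 1 to 4 down, 156 to 574 and 138 to 679 at the unadjusted threshold, and 4 to 7 genes whose effect differed from lung macrophages (31 to 57 from monocytes). The lung count was 4 without WT3 and 4 without KO1. KO1 and KO4 left out together gave 2 up, and 61 and 69 unadjusted. Unadjusted counts were 531 down in DESeq2, 663 up and 872 down without a filter, and 890 up and 865 down in voom. With the replicate number as a block, 3 were called up and 3 down, with 274 and 152 unadjusted, and Gdf3 was not called (adjusted p = 0.0921). The numbers did not pair the samples. Causes were not tested, except that fewer samples enter when libraries are left out.

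Of the named genes' log2 fold changes under alternatives, 1743 kept direction and side of the threshold, 66 newly passed, 24 no longer passed and 46 reversed. Without KO1 and KO4 these were Ly6c2 -0.59, S100a9 -2.03, Cxcl9 -0.28, Ifi205 -0.28, Acod1 -0.01, Saa3 -0.49, Fcgr1 -0.20, Ms4a6d -0.022, C3 -0.83 and Cpa3 0.10. Without WT1 and WT3 they were Itgam 0.34, Cd79a -0.030, S100a9 -0.042, Gapdh 1.68, CT010467.1 0.078, A130071D04Rik 0.94 and Zfp217 0.20. In voom they were Itgam 0.39, Cd79a -0.033, S100a9 -0.75, Gapdh 1.03, A130071D04Rik 0.80 and Zfp217 0.22. With the replicate block they were Itgam 0.042, Cpa3 0.14, S100a9 -0.036, AC163694.1 0.36, Gapdh 0.47 and A130071D04Rik 0.26, and without a filter Itgam 0.004. With 1 sample left out, ranges crossed 0 for Itgam (-0.22 to 0.38), Ptprc (-0.48 to 0.034), Timd4 (-0.043 to 0.53), Cpa3 (-0.58 to 0.37), Cd79a (-0.17 to 0.32), S100a9 (-0.81 to 0.63), AC163694.1 (-0.57 to 0.25), Gapdh (-2.26 to 1.98), CT010467.1 (-2.15 to 0.49), A130071D04Rik (-0.86 to 0.97) and Zfp217 (-1.41 to 0.25). Low genes are limited by depth, since 3 reads were worth up to 0.264 CPM.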
